A study of Mus musculus with 8 samples.

Results

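The cGAS-STING pathway and the enzymes that restrain it were followed as 10 genes of the 57132 in the count table, taken by gene symbol, in 4 control and 4 treated tumour samples. On the sensing side stood 7 genes, the sensors Cgas and Ifi204, the adaptor Sting1, the kinases Tbk1 and Ikbke and the transcription factors Irf3 and Irf7. The brakes were 3 genes, Trex1, Enpp1 and Samhd1. Total RNA depleted of ribosomal RNA was sequenced in bulk from subcutaneous KPC tumours, a mouse model of cancer of the pancreas. Control tumours received PBS, a buffered saline, and treated tumours received targeted photodynamic therapy mediated by Ce6@D4-EV (PDT here). Light turns Ce6, the dye chlorin e6, into a source of reactive oxygen, and the submitters call its carrier D4-EV. All 8 samples came from such tumours, and no arm with the carrier or light alone was analysed here. The labels call the tissue sorted without naming a gate, and strain, age and the interval from treatment to harvest are not stated there. Whether each sample is its own animal is not stated, and p-values therefore measure only the spread between these samples, which may be technical.

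Cyclic GMP-AMP synthase (cGAS) binds DNA in the cytosol and makes the messenger cGAMP, which binds STING on the endoplasmic reticulum. STING then moves towards the Golgi and recruits the kinase TBK1, which phosphorylates IRF3, and IRF3 turns on interferon beta. Nucleases that clear DNA, enzymes that deplete its building blocks and hydrolases that destroy cGAMP keep the pathway quiet in healthy tissue. Much of this control acts on proteins, by phosphorylation and transport, which RNA levels do not show.

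Library totals ran from 35742024 to 48804713 reads. PBS 1 stood apart on the first principal component (−111.5, where the remaining PBS libraries scored −8.53 to 4.32 and PDT 16.1 to 37.2). For the pathway, values without it are given for Cgas, Irf7, the sensing median and the ratios Cgas over Enpp1 and Irf7 over Irf3. None are given for the other pathway lists or the cell type markers. All 10 markers of ductal tumour epithelium were detected, with summed levels of 3744 to 7629 CPM (reads per library scaled to a common size) in PBS and 3273 to 6503 CPM in PDT. Of the 16 macrophage markers, all were higher in PDT on average. edgeR called 1, DESeq2 9 and limma-voom 4, 13 had an unadjusted p under 0.05, and for 9 the groups did not overlap, against the shares of all tested genes given with the members. Their sum was 2316 to 4487 CPM in PBS and 5499 to 7344 CPM in PDT, without overlap. Of 14 markers of other leukocytes 11 were tested, 10 of them higher in PDT and 0 past the test in edgeR. The median log2 fold change of these 11 was 1.23, against 0.75 for the macrophage markers. DESeq2 called 1 and limma-voom 0, 3 had an unadjusted p under 0.05, and for 3 the groups did not overlap, all higher in PDT. The 14 summed to 59.2 to 161 CPM in PBS and 126 to 401 CPM in PDT. None of these markers was at 0 in all libraries, and their part in the results for the pathway was not tested. In bulk RNA, fewer cells of a type and less RNA per cell cannot be told apart.

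Of the 10 genes 9 had enough reads to test, and Trex1 had none. The quasi-likelihood test of edgeR, with Benjamini-Hochberg adjustment, called 0 members at 0.05, and 0.235% of all 16588 tested genes, 0.0723% as lower. At an unadjusted p under 0.05 there were 3 members, Ikbke, Irf7 and Samhd1, all higher in PDT, against 8.63% of all tested genes. DESeq2 called these same 3 at an adjusted p under 0.05, where it called 5.24% of all genes and 3.12% as higher, and limma-voom called 0 of the 9 and 0.50% of all genes. The log2 fold change was above 0 for 8 of the 9, and for 49.8% of all tested genes. The median log2 fold change was 0.43 over the 9 members and −0.00 over all tested genes. Groups did not overlap for 2 members, Sting1 and Samhd1, both higher in PDT, as for 5.0% of all tested genes, or 10.1% in either direction.

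The promoters of the 3 members with the smallest p-values are printed because Irf7 and Ikbke are known to be inducible, beside that of Isg15, a standard interferon-induced gene of the pathway's output. They are RefSeq windows of the GRCm38.p6 assembly, from 250 bases before to 50 after the start site, written 5′ to 3′ on the minus strand of the genome, on which all 4 genes lie. Capitals mark matches to the core of the interferon-stimulated response element, GAAA, any 2 bases and GAAA again, on either strand.
Irf7, chr7:141266375-141266674: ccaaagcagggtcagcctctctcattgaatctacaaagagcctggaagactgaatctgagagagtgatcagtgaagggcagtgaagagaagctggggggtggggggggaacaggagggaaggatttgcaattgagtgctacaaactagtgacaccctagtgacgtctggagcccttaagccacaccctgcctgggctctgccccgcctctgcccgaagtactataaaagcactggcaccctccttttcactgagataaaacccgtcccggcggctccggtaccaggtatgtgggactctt
Ikbke, chr1:131279514-131279813: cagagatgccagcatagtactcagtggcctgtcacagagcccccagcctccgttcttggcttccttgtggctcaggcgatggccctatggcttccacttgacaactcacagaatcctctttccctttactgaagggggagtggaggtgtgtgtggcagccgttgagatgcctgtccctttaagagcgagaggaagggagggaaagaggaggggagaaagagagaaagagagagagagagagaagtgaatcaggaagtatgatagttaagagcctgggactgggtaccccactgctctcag
Samhd1, chr2:157135047-157135346: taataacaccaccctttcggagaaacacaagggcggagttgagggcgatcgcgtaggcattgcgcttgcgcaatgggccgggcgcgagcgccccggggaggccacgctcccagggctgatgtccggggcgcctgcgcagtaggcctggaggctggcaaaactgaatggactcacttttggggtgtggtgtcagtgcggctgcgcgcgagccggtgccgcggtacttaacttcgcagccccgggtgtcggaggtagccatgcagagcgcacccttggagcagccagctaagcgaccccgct
Isg15, chr4:156200769-156201068: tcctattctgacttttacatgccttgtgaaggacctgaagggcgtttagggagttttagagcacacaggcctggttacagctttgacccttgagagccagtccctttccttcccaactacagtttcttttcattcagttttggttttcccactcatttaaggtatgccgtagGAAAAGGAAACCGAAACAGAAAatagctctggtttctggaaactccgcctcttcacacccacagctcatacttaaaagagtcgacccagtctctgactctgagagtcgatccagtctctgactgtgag
Isg15 held 3 overlapping matches, starting 78, 72 and 66 bases before its start site, and the 3 members held none. Windows were searched for 8 of the 10 members, not for Ifi204 and Sting1. Of the 8, 0 held this core or that of NF-kB sites, GGG, any 2 bases and TTTCC, in these letters. The shares of all 32851 promoter windows with a match on either strand were 3.44% and 1.63%. Of 9 output genes searched, 7 held the first core, and so did 7 of 9 relatives of Ifi204. The output genes Ifit2 and Oasl1 held neither core, and nor did Ifnb1, which IRF3 turns on. At these shares most windows hold neither, and a window without these letters does not show that the gene lacks control by interferon or NF-kB.

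**Figure D1:**
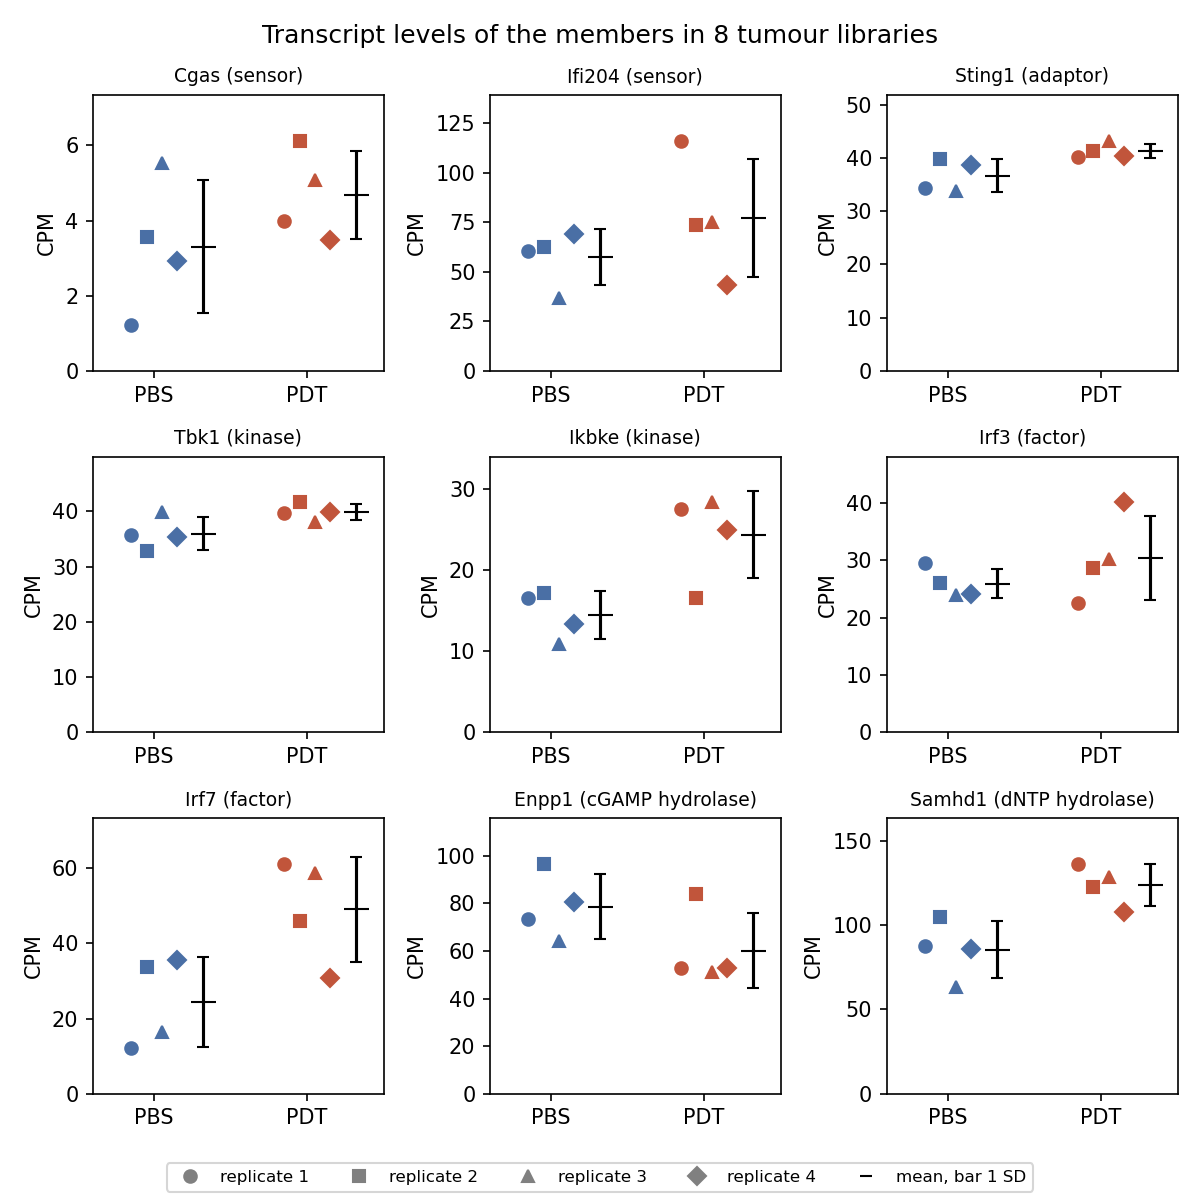
Transcript level in CPM (vertical axes, from 0) of the 9 members with reads, in the 4 PBS and 4 PDT libraries, with the replicate number as marker and the group mean ± 1 SD in black. All PDT points of Samhd1 lie above all PBS points, and for Enpp1 PDT 2 lies at 83.7 CPM while the other PDT libraries lie at 51.1 to 52.8 CPM.

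Cgas (ENSMUSG00000032344), the sensor that makes cGAMP, was the least abundant member with reads. It was at 1.22, 3.55, 5.52 and 2.94 CPM in PBS 1 to PBS 4, from 45, 149, 210 and 101 reads. In PDT 1 to PDT 4 it was at 3.99, 6.12, 5.08 and 3.49 CPM. The groups overlapped, since PBS 3 exceeded all PDT libraries except PDT 2. The mean was 3.31 ± 1.77 CPM with PBS against 4.67 ± 1.17 CPM with PDT (SD, n = 4), which is 0.50 ± 0.43 (SE) apart on the log2 scale (edgeR adjusted p = 0.625). Without PBS 1 this was 0.22 (edgeR adjusted p = 0.824), and without PBS 3 it was 0.86 (edgeR adjusted p = 0.408).

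Ifi204 (ENSMUSG00000073489), a HIN-200 protein that binds DNA and can act upstream of STING, varied widely within both groups. Its levels were 60.7, 62.5, 36.8 and 69.3 CPM over PBS 1 to PBS 4, against 116 (PDT 1), 73.6, 75.2 and 43.5 (PDT 4) CPM in PDT. PDT 4 lay below 3 of the 4 PBS libraries. Its groups were 0.43 ± 0.27 (SE) apart on the log2 scale (edgeR adjusted p = 0.477), which became 0.17 without PDT 1, 0.27 without PBS 3 and 0.63 without PDT 4. Of the 50-base words in Ifi204 transcripts, 20% also occur in transcripts of other genes, among them the paralogs Ifi205, Ifi207, Ifi211 and Mndal, so its reads are partly uncertain.

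Sting1 (ENSMUSG00000024349), the adaptor, varied little over the 8 libraries, with an SD of 0.13 on the log2 scale against 0.12 for Tbk1 and 0.26 to 0.82 for the other tested members. It was at 34.4, 39.8, 33.7 and 38.7 CPM over PBS 1 to PBS 4, against 40.2, 41.4, 43.2 and 40.4 CPM over PDT 1 to PDT 4. The groups did not overlap, but the lowest PDT library, PDT 1, exceeded the highest PBS library, PBS 2, by little. The log2 difference was 0.17 ± 0.12 (SE, adjusted p = 0.516 by edgeR). Adjusting for GC content and length, which compares each gene with genes of like composition, left 0.06.

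Tbk1 (ENSMUSG00000020115), the kinase that STING recruits, had 35.8, 32.7, 39.9 and 35.4 CPM over PBS 1 to PBS 4, against 39.7, 41.6, 38.1 and 39.9 CPM over PDT 1 to PDT 4. PBS 3 lay within the PDT range and the other PBS libraries below it. On the log2 scale the groups were 0.15 ± 0.12 apart (SE, adjusted p = 0.59 by edgeR).

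Ikbke (ENSMUSG00000042349) encodes IKK epsilon, the inducible relative of TBK1 that can phosphorylate the same factors. It was at 16.5, 17.2, 10.8 and 13.3 CPM over PBS 1 to PBS 4, against 27.5, 16.6, 28.3 and 24.9 CPM over PDT 1 to PDT 4. PDT 2 lay inside the PBS range, and the other PDT libraries lay above all PBS libraries. The mean was 14.5 ± 2.96 CPM with PBS against 24.3 ± 5.37 CPM with PDT (SD, n = 4), a 1.68-fold ratio. Its log2 difference of 0.75 ± 0.21 (SE) had the smallest p of the members, 0.0043 before adjustment and 0.115 after it in edgeR, and an adjusted p of 0.0319 in DESeq2 and 0.112 in limma-voom. Over the 8 fits with a library left out the log2 difference was 0.64 to 0.91, and the adjusted p was lowest without PDT 2, at 0.0628.

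Irf3 (ENSMUSG00000003184), the factor that TBK1 phosphorylates, was at 29.5, 26.1, 24.0 and 24.1 CPM in PBS 1 to PBS 4. In PDT 1 to PDT 4 it was at 22.5, 28.6, 30.3 and 40.1 CPM, so the treated group held both the lowest and the highest value of all 8 libraries. Irf3 differed by 0.23 ± 0.18 on the log2 scale (SE, adjusted p = 0.583 by edgeR). It was 0.08 without PDT 4, 0.36 without PDT 1 and 0.02 after the GC and length correction.

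Irf7 (ENSMUSG00000025498), a relative of Irf3 that interferon itself induces and that amplifies interferon production, had the largest difference of the members. It was at 12.3, 33.9, 16.4 and 35.7 CPM over PBS 1 to PBS 4, against 61.1, 45.9, 58.6 and 30.7 CPM over PDT 1 to PDT 4. PDT 4 lay below PBS 2 and PBS 4, and the other PDT libraries lay above all PBS libraries. The mean was 24.6 ± 11.9 CPM with PBS against 49.1 ± 13.96 CPM with PDT (SD, n = 4). Irf7 differed by 1.0 ± 0.33 on the log2 scale (SE, adjusted p = 0.166 by edgeR, 0.0303 by DESeq2 and 0.112 by limma-voom). It was 0.78 without PBS 1 and 1.25 without PBS 4, with edgeR adjusted p-values of 0.252 and 0.104. Without the filter on low counts edgeR gave Irf7 an adjusted p of 0.0233, a setting that called 534 genes in all against 39 with the filter.

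Samhd1 (ENSMUSG00000027639), a hydrolase that breaks down the nucleotides needed to make DNA, had the highest mean CPM of the members. It was at 87.5, 104.6, 63.4 and 86.0 CPM over PBS 1 to PBS 4, against 136 (PDT 1), 123 (PDT 2), 129 (PDT 3) and 107 (PDT 4) CPM. The groups did not overlap, with PDT 4 closest to PBS 2. The mean was 85.4 ± 16.9 CPM with PBS against 124 ± 12.2 CPM with PDT (SD, n = 4), a 1.45-fold ratio. The log2 difference was 0.54 ± 0.16 (SE, adjusted p = 0.122 by edgeR, 0.0322 by DESeq2 and 0.0911 by limma-voom). Leaving out 1 library gave log2 differences of 0.42 to 0.65.

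Enpp1 (ENSMUSG00000037370), a membrane and secreted enzyme that hydrolyses cGAMP outside cells, was the single member that was lower in PDT on average. It was at 73.3, 96.5, 64.1 and 80.5 CPM over PBS 1 to PBS 4, against 52.8, 83.7, 51.1 and 52.8 CPM over PDT 1 to PDT 4. PDT 2 lay inside the PBS range, and the other PDT libraries lay below all PBS libraries. The log2 difference was −0.39 ± 0.19 (SE, adjusted p = 0.33 by edgeR, 0.258 by DESeq2 and 0.252 by limma-voom). Without PDT 2 it was −0.58 (adjusted p = 0.102), without PBS 2 it was −0.27 and after the GC and length correction it was −0.17 (adjusted p = 0.724). The same library, PDT 2, was the lowest of the treated group in Ikbke and the highest in Cgas.

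Trex1 (ENSMUSG00000049734), the main exonuclease that degrades DNA in the cytosol, was listed at 0 reads in all 8 libraries, so the table gives no treated and control levels for it. By counting error alone 0 reads would allow up to 3, or 0.0665 to 0.0872 CPM. In the GENCODE M21 mouse annotation, of the GRCm38 assembly, all 1147 exon bases of Trex1 lie inside exons of Atrip on the same strand, and 95.8% of its 50-base words occur in Atrip transcripts. The whole coding sequence of 942 bases is contained in the transcripts Atrip-204 and Atrip-205. Its first 60 bases, with the start codon in capitals, are shown because a read from them matches both genes.
Trex1 and Atrip: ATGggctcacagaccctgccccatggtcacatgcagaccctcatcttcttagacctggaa
Protein-coding genes placed like this were at 0 reads in 129 of 130 cases (99.2%), against 21% of the other 21614 protein-coding genes. Of 23 genes wholly inside exons of the opposite strand, 19 were at 0. Atrip, which encodes a partner of the DNA damage kinase ATR, was counted at 305 to 416 (PBS) and 366 to 425 (PDT) reads, with a difference on the log2 scale of −0.09 ± 0.20 (SE, adjusted p = 0.887 by edgeR). The sources used here do not say how reads shared by 2 genes were counted.

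**Figure D2:**
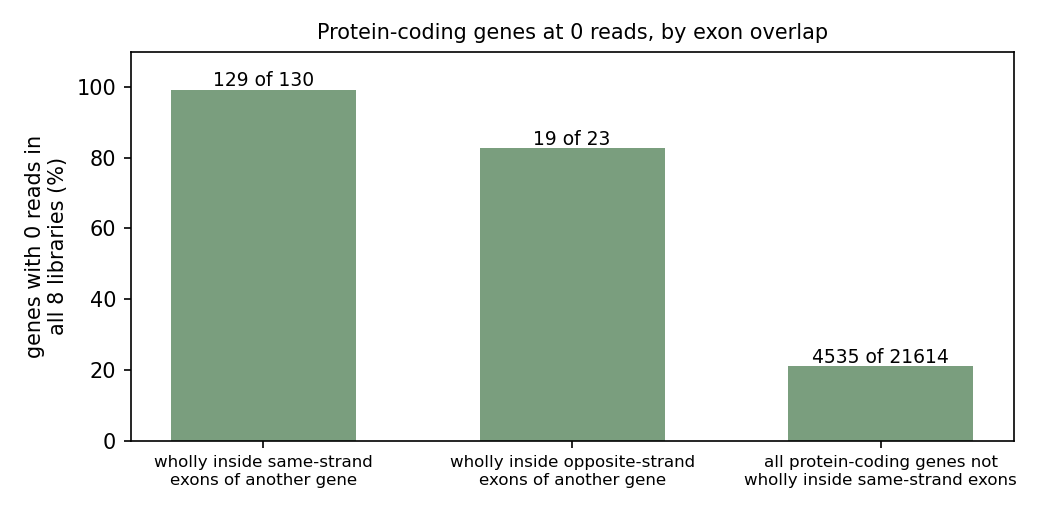
Share of protein-coding genes with 0 reads in all 8 libraries (vertical axis, percent), by whether their exons lie wholly inside exons of another gene. Of the genes inside same-strand exons, the class of Trex1, 129 of 130 were at 0, of those inside opposite-strand exons 19 of 23, and of the others 21%.

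The brakes therefore came down to Samhd1 and Enpp1, which differed in opposite directions. The median log2 fold change was 0.43 for the 7 genes of the sensing side and 0.07 for the 2 tested brakes, the midpoint of 0.54 and −0.39. With 1 library left out the sensing median ran from 0.27, without PBS 3, to 0.63, without PDT 4, and was 0.30 without PBS 1. The brake median was −0.03 without PBS 3, −0.01 without PDT 2, 0.19 without PBS 2, 0.14 without PDT 4 and 0.20 with the GC and length correction, so its sign rests on single libraries. On the sensing side Irf7 and Ikbke differed most, by 1.0 and 0.75 on the log2 scale, and edgeR called neither. Cgas and Ifi204 differed by 0.50 and 0.43, and Sting1, Tbk1 and Irf3 by 0.15 to 0.23.

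**Figure D3:**
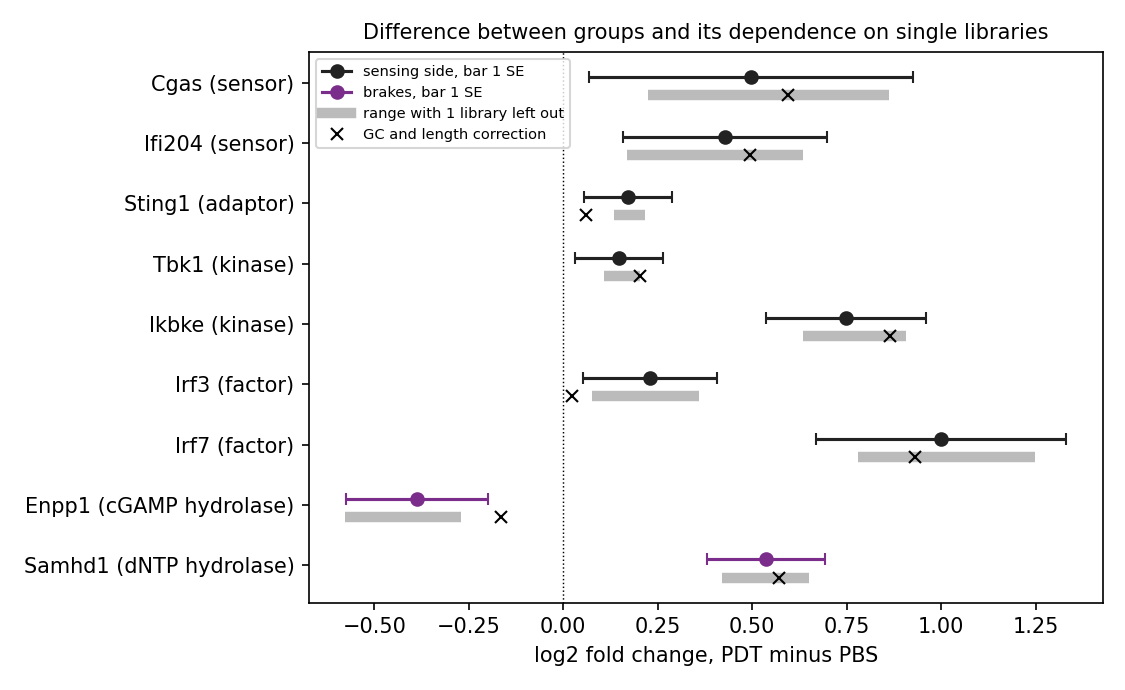
Log2 fold change, PDT minus PBS, of the 9 tested members (points, bars 1 SE), with the range over 8 fits that each leave out 1 library in grey and the value after a GC and length correction as a cross. Every grey range stays on its side of 0, and the crosses of Sting1 at 0.06 and Irf3 at 0.02 lie next to it.

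Ratios of read counts within a library do not depend on how libraries are scaled, and were taken as log2 with 0.5 reads added to each count. For Cgas over Enpp1, the maker of cGAMP over its hydrolase, they were −5.89, −4.76, −3.53 and −4.77 over PBS 1 to PBS 4, against −3.72, −3.77, −3.33 and −3.91 over PDT 1 to PDT 4. PBS 3 lay inside the PDT range, and the other PBS libraries lay below it. The means were −4.74 ± 0.96 and −3.68 ± 0.25 (SD, n = 4), 1.05 apart, or 0.67 apart without PBS 1 and 1.46 apart without PBS 3. For Ikbke over Tbk1, the inducible over the constitutive kinase, the ratio was −1.11, −0.93, −1.88 and −1.41 over PBS 1 to PBS 4, against −0.53, −1.33, −0.43 and −0.68 over PDT 1 to PDT 4. PDT 2 lay inside the PBS range and the other PDT libraries above it. For Irf7 over Irf3 it was −1.26, 0.38, −0.55 and 0.56 over PBS 1 to PBS 4, against 1.44, 0.68, 0.95 and −0.38 over PDT 1 to PDT 4. PDT 4 lay inside the PBS range here, and the other PDT libraries above it. The means were 0.89 apart, or 0.54 apart without PBS 1 and 1.24 apart without PDT 4. In each of these 3 ratios the groups thus overlapped by a single library.

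**Figure D4:**
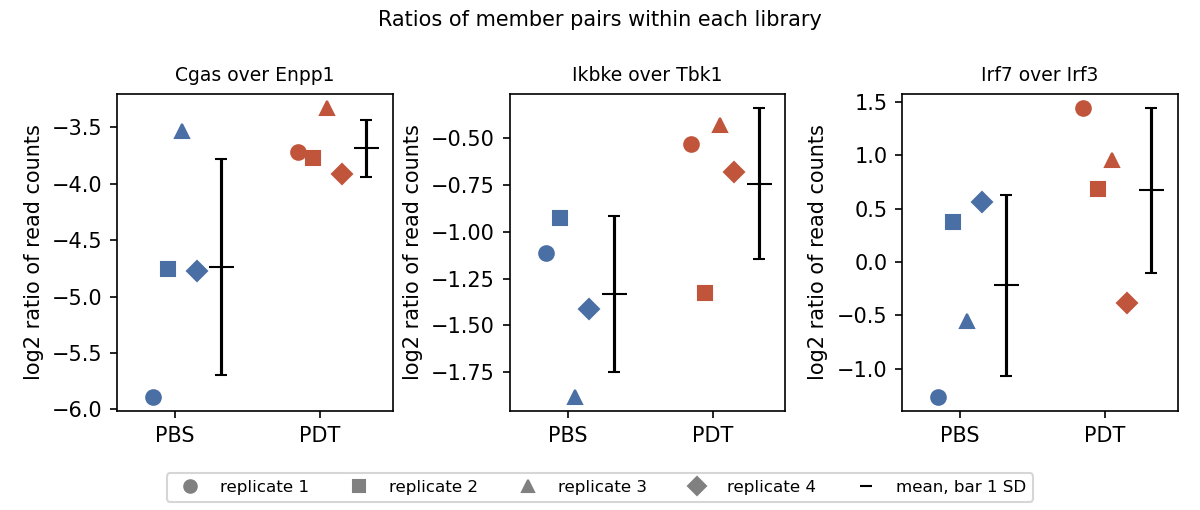
Log2 ratio of read counts of member pairs within each library (vertical axes), by group, with the replicate number as marker and the mean ± 1 SD in black. The PDT mean is higher by 1.05 for Cgas over Enpp1, 0.59 for Ikbke over Tbk1 and 0.89 for Irf7 over Irf3, with 1 library crossing in each.

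Divided by exon length, so that genes can be compared with each other, the levels in PBS were highest for Ifi204 at 16.1 ± 3.99 CPM per kilobase (SD, n = 4), followed by Sting1 at 13.4 ± 1.12, Samhd1 at 9.33 ± 1.85 and Tbk1 at 9.19 ± 0.762. Enpp1 at 7.66 ± 1.33, Irf3 at 7.53 ± 0.746 and Irf7 at 6.50 ± 3.16 CPM per kilobase came next, then Ikbke at 1.60 ± 0.329 and Cgas at 0.802 ± 0.43. Neighbours in this order overlapped, except that every value of Sting1 lay above those of Samhd1 and every value of Irf7 above those of Ikbke. In PDT Ifi204 was at 21.6 ± 8.37 and Sting1 at 15.1 ± 0.494 CPM per kilobase. Irf7 stood at 13.0 ± 3.70 CPM per kilobase, between Samhd1 at 13.5 ± 1.33 and Tbk1 at 10.2 ± 0.368, and Enpp1 at 5.86 ± 1.54 was below Irf3 at 8.83 ± 2.12. In PDT the neighbours that did not overlap were Enpp1 above Ikbke and Ikbke, at 2.7 ± 0.595, above Cgas, at 1.13 ± 0.284. The sensor Cgas was thus the lowest and its adaptor Sting1 the second highest of the 9 in both groups.

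The members differed in which libraries were low. PBS 3, which had the lowest macrophage sum (2316 CPM) and the highest epithelial sum (7629 CPM) of all libraries, was also the lowest of the 8 in Ifi204, Sting1, Ikbke and Samhd1. It was the highest PBS library in Cgas and Tbk1. PDT 4, with the highest epithelial sum of the treated group (6503 CPM), was the lowest PDT library in Cgas, Ifi204, Irf7 and Samhd1 and the highest in Irf3. Its macrophage sum of 5719 CPM was above that of PDT 3, at 5499 CPM. PBS 1, with the highest macrophage sum of the PBS libraries (4487 CPM), was the lowest of the 8 in Cgas (1.22 CPM) and Irf7 (12.3 CPM). The part of macrophage and epithelial content in the differences between groups was not tested.

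Over the 8 libraries the log2 level varied most for Irf7 (SD 0.82), Cgas (0.72) and Ifi204 (0.51). The genes whose log2 levels, centred on their mean, came closest to Irf7 among 14079 genes of at least 1 CPM were Gm36496, a predicted gene, at a root mean square difference of 0.22, Irak3, a brake on Toll-like receptor signalling in myeloid cells, at 0.27, and Sash3, a signalling adaptor of lymphocytes, at 0.27. Closest to Ifi204 were its paralog Mndal, at 0.12, the interferon-inducible Ifi27l2a at 0.14 and the histamine-degrading enzyme Hnmt at 0.16. Mndal had 40.7 CPM in PDT 1 and 18.0 CPM in PDT 4, the same extremes of the treated group as Ifi204, and the pair shares sequence. Closest to Cgas were 1110019D14Rik at 0.23, Sirpb1b, a signal-regulatory receptor of myeloid cells, at 0.23 and Spata7, a ciliary gene, at 0.23.

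Around the members, 10 lists held 110 other genes of the pathway, of which 105 were tested, and edgeR called 0 of them over all genes. At an unadjusted p under 0.05 there were 17 higher and 8 lower in PDT, where 16.5% of all tested genes passed in either direction and 8.63% as higher. DESeq2 called 6 as higher and 2 as lower, against 5.24% of all tested genes, and limma-voom called 0. Groups did not overlap for 8 of the 105 as higher and 5 as lower in PDT. Of all tested genes 10.1% did not overlap in either direction, 5.0% as higher and 5.12% as lower. From each list the genes with the smallest p are named.

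Among 15 other DNA sensors the log2 fold change was above 0 for 12, with a median of 0.21. Zbp1, which senses Z-form nucleic acid and starts necroptosis, was at 19.2 ± 8.84 CPM with PBS against 35.9 ± 9.36 CPM with PDT (SD, n = 4; log2 difference 0.90, edgeR adjusted p = 0.174, DESeq2 0.0452), and the groups overlapped. Xrcc5, the Ku80 subunit of the DNA end-binding complex, was at 82.0 ± 7.93 CPM with PBS against 64.2 ± 1.28 CPM with PDT, with no overlap (−0.35, edgeR adjusted p = 0.163). Among 5 genes of RNA sensing the median was 0.18, with Dhx58 (LGP2) at 0.84 (edgeR adjusted p = 0.204) and Ifih1 (MDA5) at 0.23 (edgeR adjusted p = 0.636). The kinase-proximal lists were near the background, with medians of −0.08 over 9 adaptors of TBK1, −0.07 over 7 genes of the NF-kB arm and 0.04 over 7 other interferon regulatory factors. Traf6, a ubiquitin ligase of innate signalling, differed by −0.48 (edgeR adjusted p = 0.19) and Tbkbp1, a TBK1-binding adaptor, by 0.60 (edgeR adjusted p = 0.325). Nfkbia, the inhibitor and target of NF-kB, differed by 0.58 (edgeR adjusted p = 0.195) and the kinase Chuk by −0.26 (edgeR adjusted p = 0.348). Of those factors Irf5, which acts in myeloid cells, was higher in PDT without overlap (0.43, edgeR adjusted p = 0.149), and Irf8 differed by 0.53 (edgeR adjusted p = 0.212). Another of the 7 factors was lower in PDT without overlap, as was 1 of the 7 genes of the NF-kB arm. Of all tested genes 5.0% were higher and 5.12% lower without overlap.

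Regulators of STING traffic and turnover were even in sign, with 10 of 20 above 0 and a median of 0.00. At an unadjusted edgeR p under 0.05, 1 was higher and 4 were lower in PDT. Of all tested genes 16.5% passed in either direction and 8.63% as higher. Rnf5, a ubiquitin ligase that marks STING for degradation, was at 11.7 ± 2.07 CPM with PBS against 24.0 ± 12.9 CPM with PDT (SD, n = 4; 1.04, edgeR adjusted p = 0.126, DESeq2 0.0221), with PDT 4 highest at 43.0 CPM. Insig1, a membrane anchor of sterol sensing that also helps to ubiquitinate STING, differed by −0.61 (edgeR adjusted p = 0.151, DESeq2 0.0473). Among 12 tested genes that move or degrade cGAMP the median was −0.08. Lrrc8c, a subunit of the volume-regulated anion channel that carries cGAMP between cells, had the smallest adjusted p of the pathway. It was at 49.2, 58.1, 71.6 and 62.9 CPM over PBS 1 to PBS 4, against 33.7, 39.5, 39.2 and 28.4 CPM over PDT 1 to PDT 4. All PDT libraries lay below all PBS libraries, as for 5.12% of tested genes. The log2 difference was −0.78 ± 0.16 (SE, adjusted p = 0.0597 by edgeR, 0.000984 by DESeq2 and 0.0507 by limma-voom), and its partner subunit Lrrc8b differed by −0.49 (edgeR adjusted p = 0.231).

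Beyond Samhd1, Enpp1 and Trex1, 13 other genes were tested, enzymes that cut or edit nucleic acids and the DNA-binding protein Banf1. Their log2 fold change was above 0 for 10, with a median of 0.32, and 6 had an unadjusted p under 0.05, all higher in PDT, against 8.63% of tested genes. Groups did not overlap for 4, all higher in PDT, against 5.0% of all tested genes: Rnaseh2b, a subunit of the ribonuclease that removes RNA from DNA, the lysosomal nuclease Dnase2a, and the lysosomal exonucleases Pld3 and Pld4. Rnaseh2b was at 26.1 ± 3.62 CPM with PBS against 35.6 ± 3.06 CPM with PDT (SD, n = 4; 0.45, edgeR adjusted p = 0.149). Its partner Rnaseh2c differed by 0.83 (edgeR adjusted p = 0.126, DESeq2 0.0206), with PDT 4 highest at 95.8 CPM. Genes on the opposite strand overlap 30% of the exon bases of Dnase2a and 24.8% of those of Rnaseh2c. The shares were 24.7% for Rnf5 and 14.1% for Irf5. Reads from such stretches may be left uncounted, or mixed, where strand was not used. Of 23 genes wholly inside opposite-strand exons, 19 were at 0 reads. Pld4, at 28.3 CPM in PBS 3 against 50.97 to 52.7 CPM in the other PBS libraries, was lowest in the library with the lowest macrophage sum, and the part of macrophage content in its difference was not tested.

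Interferon beta itself, Ifnb1, was listed at 0 reads in 7 libraries and at 6 reads in PDT 3, too few to test. Ifnar2, a subunit of the type I interferon receptor, differed by 0.69 (edgeR adjusted p = 0.188) and Stat2, which carries its signal, by 0.36 (edgeR adjusted p = 0.349). Of 11 output genes, 10 were above 0 with a median of 0.36. Isg15, a ubiquitin-like protein, was at 9.96, 10.5, 4.15 and 9.07 CPM over PBS 1 to PBS 4, against 21.5, 14.8, 22.2 and 13.7 CPM over PDT 1 to PDT 4 (1.10 ± 0.29, edgeR adjusted p = 0.102, DESeq2 0.0118). Bst2, tetherin, was at 44.5 ± 15.6 CPM with PBS against 83.6 ± 14.5 CPM with PDT (SD, n = 4; 0.91, edgeR adjusted p = 0.0985, DESeq2 0.00519). Both were higher in PDT with no overlap between groups, as were 5.0% of all tested genes. Cxcl10, a chemokine often used as a readout of STING, differed by −0.03 (edgeR adjusted p = 0.982). It was named after its value was seen.

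**Figure D5:**
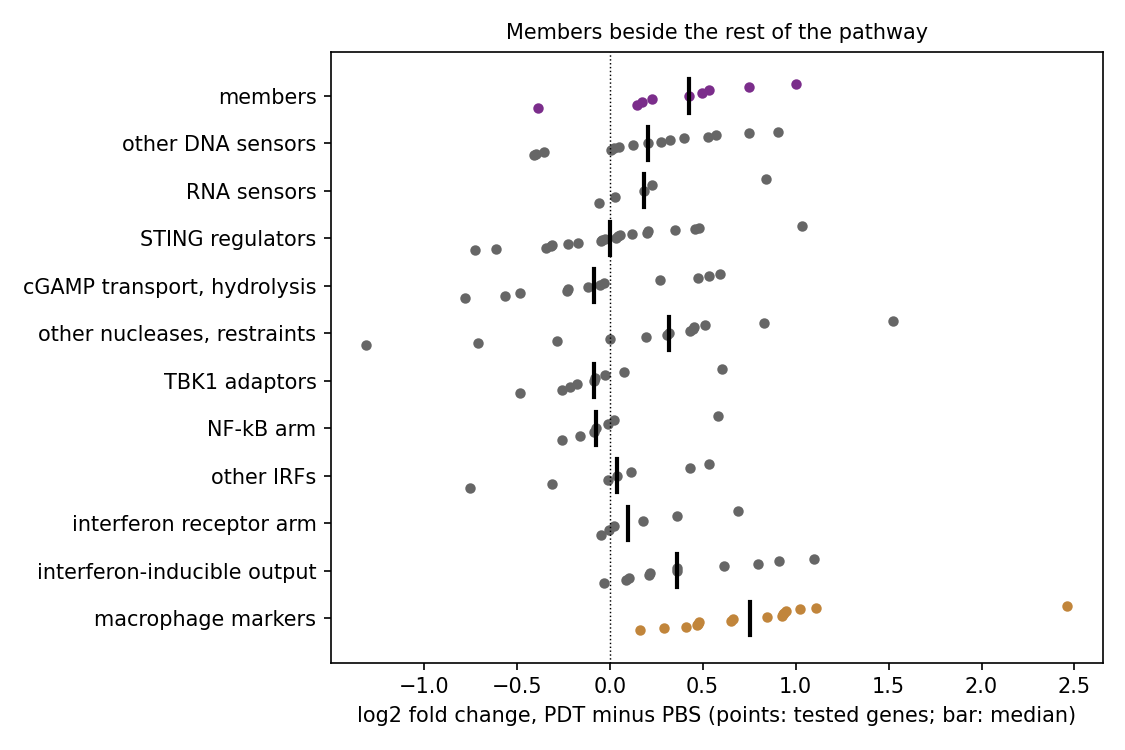
Log2 fold change, PDT minus PBS, of each tested gene (points) among the members, the other pathway lists and the macrophage markers, with medians as black bars. The median is 0.43 for the members, −0.08 to 0.36 for the other pathway lists and 0.75 for the macrophage markers.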

How the data were processed

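The deposited table holds gene-level read counts, not normalized, for 8 libraries. Libraries were directional and made from RNA depleted of ribosomal RNA, per the labels' protocols. The submitters' processing notes name cutadapt 4.6, STAR 2.7.11b and the GRCm39 build, with no role or order. Not given in the sources used here are the counting tool, its strand setting and its annotation. Between 77.9% and 83.8% of low counts (1 to 20) were even, so both reads of a pair may have been counted, and counts divided by 2 were an alternative.

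Genes were tested with edgeR 4.0.16 (R 4.3.3; filterByExpr, TMM scaling, quasi-likelihood test, Benjamini-Hochberg adjustment over all 16588 tested genes, threshold 0.05). CPM used TMM-scaled library sizes. DESeq2 1.42.0, limma 3.58.1 (voom), other scalings and filters, a GC and length correction, a replicate block and leaving out each library were alternatives. On simulated counts with 200 genes changed and 16017 genes tested, the test recovered 70% of 4-fold and 41.1% of 2-fold changes, with 8 false among 122 calls. Every pair of libraries differed by more than counting error (chi-square per degree of freedom 69.5 to 145 within groups). None was taken as a repeat of another. This cannot show that each library is its own animal, since libraries of the same tumour can also differ by more than that error. Exon lengths and overlaps came from GENCODE M21 (GRCm38) by gene identifier, and no coordinates were moved between builds. Protein identities were not computed.

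The members and lists were chosen with earlier results of these data known. Named were all members, Ifnb1, the 2 genes of each list with the smallest edgeR p, and the 3 genes closest to each of the 3 most variable members. Cxcl10 and the enzymes without overlap were named after their values were seen.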

Additional observations from a re-analysis of the deposited data

Results flagged for a closer look

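Enpp1 in the PDT libraries was the single case, of 24 groups of 4 libraries examined, in which 1 library stood far from the rest. The gap between PDT 2, at 83.7 CPM, and the nearest other PDT library, at 52.8 CPM, was 0.9471 of the whole range, above the critical value of 0.829. Chance alone passes that critical value in about 1 in 20 groups, and 24 were examined. Without PDT 2 the log2 difference of Enpp1 was −0.58 (edgeR adjusted p = 0.102), against −0.39 with it.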

How the results depend on the processing

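All 9 tested members kept the direction of their log2 difference under the 18 alternatives run, 8 of which left out 1 library. The number of genes called moved much more, from 39 to 69 with upper-quartile scaling, 534 with no filter on low counts, 88 with at least 1 CPM in 4 libraries, 869 with DESeq2, 83 with limma-voom, 67 with counts divided by 2 and 25 with the GC and length correction. Leaving out 1 library gave 0 to 122 genes: 10, 4, 0 and 122 without PBS 1 to PBS 4, and 0, 112, 3 and 3 without PDT 1 to PDT 4. Members called were 0 to 0 over these 8 fits, 1 with no filter (Irf7, 1.01, edgeR adjusted p = 0.0233) and 3 with DESeq2 (Ikbke 0.75, Irf7 1.0 and Samhd1 0.54). The sensing median ran from 0.27 to 0.63 with 1 library left out, and the brake median from −0.03 to 0.19. No ratio of Cgas to Trex1 could be formed.

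The replicate numbers were checked for pairing. Same-numbered libraries correlated at 0.0385 to 0.069 in their deviations from the group means, and none correlated best with its own number. Such weak correlations cannot show whether the samples were paired, and the main fit treated them as unpaired. A fit with the replicate block called 182 genes, 129 together with the GC and length correction, and no member.

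With 4 libraries a group, a difference of the size seen in Cgas (0.50, SE 0.43) cannot be told from 0.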

Other observations

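Fen1, a flap endonuclease of DNA repair in the list of nucleic acid enzymes, had 0 to 41 reads in the 8 libraries, although it is well expressed in most dividing cells. In GENCODE M21, 84.2% of its exon bases lie inside exons of genes on the opposite strand, Tmem258 and Gm10143. It was singled out after its values were seen. Its log2 difference enters the counts and the median of the 13 tested genes of that list, and is not interpreted by itself.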
